A study of Homo sapiens with 9 samples.

Results

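The 51 genes described here encode the nuclear subunits of respiratory complexes II to V and cytochrome c. They were taken from the 28307 rows of the count table by symbol, as SDHA to SDHD, CYC1, CYCS and every gene whose symbol starts with UQCR, COX4, COX5, COX6, COX7, COX8 or ATP5, without pseudogenes and read-through genes. Complex II had 4 of these genes, complex III 10, cytochrome c 1, complex IV 17 and complex V 19. Poly(A) RNA had been sequenced from wild-type SW620 cells, a colon adenocarcinoma line that was established from a lymph node metastasis, kept in suspension in low-attachment plates with insulin, basic FGF and EGF. The 3 groups of 3 libraries were untreated cells, cells given 120 µM SM (streptomycin) and cells given 120 µM DSM (dihydrostreptomycin), all at 48 h and described by the submitters as biological replicates. SM is an aminoglycoside antibiotic directed at the bacterial ribosome, and the formyl group of its streptose sugar is a hydroxymethyl group in DSM. A single cell line was used, so the values speak for this line alone.

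Complex II (succinate dehydrogenase) passes electrons from succinate to ubiquinone, and complex III passes them on to cytochrome c. Complex IV (cytochrome c oxidase) hands them to oxygen. Complexes III and IV pump protons, and complex V (ATP synthase) uses the resulting gradient to make ATP. Complex II is built from nuclear-encoded proteins only, whereas complexes III, IV and V combine nuclear-encoded subunits with a few that are encoded by mitochondrial DNA and translated on the mitochondrial ribosome, a relative of the bacterial one. Messenger RNAs of mitochondrial DNA were not analysed here.

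Many nuclear respiratory genes carry binding sites for NRF1, for the ETS factor GABPA or for YY1 close to their start. Promoters are shown for 3 subunits that were abundant in SW620 cells and for the tissue-restricted isoform of each that was at or near 0, and for 2 subunits, SDHD and ATP5MC2, which had the smallest p in their complexes between the libraries numbered 1 and the others. Each sequence is the stretch of 250 bases before the RefSeq start (GRCh38.p14), in the direction of the gene. For ATP5MC2 this start is an internal one, since the stretch lies inside the annotated gene (53665170 to 53681423). Capitals mark the cores GCATGCGC (NRF1) and CCGGAAGT (GABPA, ETS), searched on both strands together with AAGATGGC (YY1). In SDHD the capitals GCGCATGCGC hold 2 overlapping NRF1 cores, 1 on each strand.
COX6A1 (chr12:120437863-120438112, + strand): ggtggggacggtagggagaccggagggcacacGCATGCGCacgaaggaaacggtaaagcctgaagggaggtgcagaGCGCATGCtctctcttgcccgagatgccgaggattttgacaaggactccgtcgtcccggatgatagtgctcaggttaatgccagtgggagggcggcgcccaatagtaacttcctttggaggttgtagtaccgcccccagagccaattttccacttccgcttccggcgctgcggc
COX6A2 (chr16:31428361-31428610, - strand): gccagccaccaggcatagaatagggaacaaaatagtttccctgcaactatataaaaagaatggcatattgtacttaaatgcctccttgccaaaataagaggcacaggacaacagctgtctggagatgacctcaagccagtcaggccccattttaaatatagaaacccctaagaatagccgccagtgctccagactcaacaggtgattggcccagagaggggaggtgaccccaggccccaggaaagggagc
COX7B (chrX:77899218-77899467, + strand): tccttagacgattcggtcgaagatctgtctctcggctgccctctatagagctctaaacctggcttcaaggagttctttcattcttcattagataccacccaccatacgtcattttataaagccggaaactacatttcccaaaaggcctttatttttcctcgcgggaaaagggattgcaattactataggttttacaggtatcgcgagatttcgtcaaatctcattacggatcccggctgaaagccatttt
COX7B2 (chr4:46909246-46909495, - strand): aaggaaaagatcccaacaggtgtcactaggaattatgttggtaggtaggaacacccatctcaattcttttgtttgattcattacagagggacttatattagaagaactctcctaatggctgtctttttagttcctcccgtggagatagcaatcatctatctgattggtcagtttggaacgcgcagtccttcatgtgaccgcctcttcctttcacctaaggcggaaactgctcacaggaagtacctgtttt
COX8A (chr11:63974370-63974619, + strand): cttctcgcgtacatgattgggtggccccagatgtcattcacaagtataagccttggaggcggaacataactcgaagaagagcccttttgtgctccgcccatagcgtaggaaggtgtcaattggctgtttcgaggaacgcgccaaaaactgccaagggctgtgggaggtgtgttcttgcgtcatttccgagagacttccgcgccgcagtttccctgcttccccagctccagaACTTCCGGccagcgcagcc
COX8C (chr14:93346932-93347181, + strand): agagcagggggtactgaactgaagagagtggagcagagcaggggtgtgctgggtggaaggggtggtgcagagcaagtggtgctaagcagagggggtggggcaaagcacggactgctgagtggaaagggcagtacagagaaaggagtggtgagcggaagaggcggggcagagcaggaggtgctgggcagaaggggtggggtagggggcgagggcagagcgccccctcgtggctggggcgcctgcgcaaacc
SDHD (chr11:112086623-112086872, + strand): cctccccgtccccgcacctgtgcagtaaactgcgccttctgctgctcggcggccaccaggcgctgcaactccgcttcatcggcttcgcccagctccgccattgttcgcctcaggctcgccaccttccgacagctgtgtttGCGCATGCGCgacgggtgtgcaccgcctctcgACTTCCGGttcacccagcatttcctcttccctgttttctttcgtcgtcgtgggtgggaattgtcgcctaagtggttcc
ATP5MC2 (chr12:53676084-53676333, - strand): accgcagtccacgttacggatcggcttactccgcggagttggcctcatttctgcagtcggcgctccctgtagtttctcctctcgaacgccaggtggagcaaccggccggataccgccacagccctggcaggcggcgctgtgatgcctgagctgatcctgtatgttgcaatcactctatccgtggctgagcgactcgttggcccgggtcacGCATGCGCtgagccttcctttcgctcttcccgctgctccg
Of the 51 genes, 39 had a promoter in the RefSeq table. Among the 35 of these above 10 CPM in every library, 25.7% held the NRF1 core, 22.9% the GABPA core and 2.86% the YY1 core, and 15 (42.9%) held at least 1. Over all 27305 promoters of the same length the shares were 2.81%, 3.64% and 1.37%, and 7.41% held at least 1. Over the 7304 promoters of genes above 10 CPM in every library they were 5.61%, 8.76% and 2.11%, and 15.5% held at least 1. None of the 4 promoters of members that were not above 10 CPM (COX7B2, COX8C, COX6A2 and COX6B2) held a core. At these shares, 0 of 4 does not set the low members apart. COX6A1 and SDHD each held 2 NRF1 cores, and COX8A held the GABPA core, while COX7B held none although it was abundant. COX6B1, COX4I1 and COX7A2, also abundant and not shown, held none either. A match to these letters is a description of the sequence and not a measured binding site.

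Total counts lay between 39315662 (SM replicate 2) and 65562227 (untreated replicate 1). In each group the library numbered 1 differed from the other two, and the labels do not say what a number shares. SM replicate 2 stood above the other SM libraries in members of complex IV. Over the 6304 tested genes of at least 30 CPM it did not, with a median log2 difference of -0.0028 from the other SM libraries. Results that rest on these libraries are therefore given with and without the replicate number as a block, and without SM replicate 2. Summed colon epithelial markers were 11822 to 14871 CPM in untreated, 11299 to 13540 in SM and 11588 to 14548 in DSM libraries, and 7 of 9 were above 1 CPM, with KRT20 and LGALS4, markers of differentiated cells, at medians of 0.194 and 0.324 CPM. Fibroblast markers summed to at most 26.5 CPM. COL3A1 and DCN were at 0 in every library, but COL1A1 lay at 7.01 to 13.3 CPM and LUM at 4.98 to 13.7 CPM. Leukocyte, endothelial and striated muscle markers summed to at most 9.04, 4.42 and 2.38 CPM, with the leukocyte marker LYZ at 4.68 to 8.76 CPM. In bulk RNA, fewer cells that express a gene and less RNA per cell cannot be told apart.

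The 51 genes together took 0.619% of reads. Read counts scaled to library depth (CPM, with TMM effective library sizes) put 43 of the 51 above 10 CPM in every library, and 45 had enough counts to be tested. ATP5F1B, the catalytic beta subunit of ATP synthase, was the most abundant at a median of 1118 CPM, and CYCS, cytochrome c itself, followed at 296 CPM. Per kilobase of its only annotated transcript length, ATP5F1B stood at 608 CPM, against 37.0 to 120.0 CPM per kilobase for ATP5F1A, the alpha subunit of the same catalytic ring, depending on which transcript is taken. COX6A1, a complex IV subunit, stood at 314 CPM per kilobase and COX8A at 259. The genes ATP5MC1, ATP5MC2 and ATP5MC3 encode the same mature c subunit of the rotor ring, and their levels per kilobase ranged from 110.3 to 189, 109 to 356 and 30.3 to 209 CPM, so the 3 cannot be ordered.

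Where a subunit has a ubiquitous and a tissue-restricted gene, SW620 cells expressed the ubiquitous one in every group. COX6A2 and COX7A1, the heart and muscle isoforms, and COX7B2 had no read in any of the 9 libraries. A count of 0 in the 493454606 pooled reads allows up to 3 reads, or 0.00608 CPM. COX8C had 1 read in all (untreated replicate 3), COX4I2, the lung isoform, 1 read (SM replicate 3), and ATP5MGL, a retrogene copy of ATP5MG, 14 reads over 9 libraries. Their partners COX6A1, COX7A2, COX7B, COX8A, COX4I1 and ATP5MG had medians between 72.4 (COX7A2) and 179 CPM (COX6A1). COX6B2, the testis isoform, lay between 0.435 and 1.03 CPM and UQCRHL, a near-identical retrogene of UQCRH, between 0.335 and 0.653 CPM. Reads of UQCRHL and UQCRH may be shared, since the treatment of reads that map to several places is not given.

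**Figure D1:**
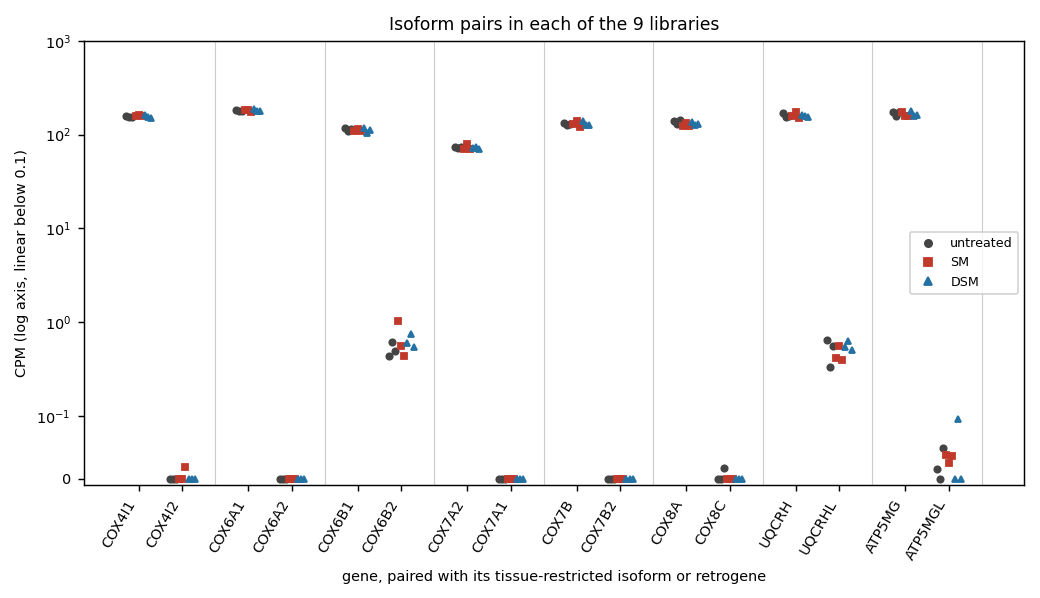
Level of 8 subunits and of the tissue-restricted isoform or retrogene of each, in CPM on a log axis that is linear below 0.1, with 1 point per library (circles untreated, squares SM, triangles DSM). The first gene of each pair lies between 70.0 and 188 CPM in all 9 libraries, whereas COX6A2, COX7A1 and COX7B2 lie at 0 and COX6B2 and UQCRHL lie at or below 1.03 CPM.

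The first comparison asked whether SM changed the mRNA of these subunits. No member passed the test, and the levels of the 43 abundant members moved by little. Their log2 fold changes lay between -0.12 (ATP5MC1) and 0.06 (COX7A2L), and every 95% interval lay within a 1.25-fold change in either direction, with the lowest bound at -0.28 (ATP5MC1) and the highest at 0.23 (CYC1). By the edgeR quasi-likelihood test with Benjamini-Hochberg adjustment over 15619 genes, 0 of 45 tested members were called, against 0.0192% of all genes, and the unadjusted p was under 0.05 for 2 members. In the blocked fit 0 of 45 were called, against 2.74% of all genes, and the unadjusted p was under 0.05 for 7 members. Over the 15619 tested genes, 365 had an unadjusted p under 0.05 without the block and 2317 with it. DESeq2 and limma voom also called 0 members, with and without the block. The median log2 fold change was -0.027 over the 45 members, of which 33 were negative, and -0.00073 over all tested genes. By complex the medians were -0.026 for II, -0.038 for III, -0.0025 for IV and -0.038 for V.

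With DSM, too, no member passed the test. edgeR called 0 of 45 members without or with the block, as for all genes (0% in both), and 1 and 3 members had an unadjusted p under 0.05. Among the 15619 tested genes 103 and 650 did. The abundant members lay between -0.11 (ATP5F1D) and 0.03 (ATP5PB) on the log2 scale, with bounds of -0.29 and 0.18, both for ATP5MC2. The median was -0.025, with 34 of 45 negative, and by complex -0.035 for II, -0.035 for III, -0.011 for IV and -0.025 for V. SM and DSM share the untreated libraries, so the likeness of their values is not independent evidence.

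The direct comparison of SM with DSM, the only pair of compounds in the series, at the same dose and time, placed the abundant members between -0.09 (ATP5MC1) and 0.07 (COX5A), with interval bounds of -0.26 and 0.26. Taken 1 gene at a time, each of the 43 95% intervals between the aldehyde and the alcohol lay within a 1.25-fold change. They are not joint intervals, so they do not bound all 43 differences at once. edgeR called 0 of 45 members without the block, where 0% of all genes were called, and 0 of 45 with it, where 3.88% of all genes were called. The counts with an unadjusted p under 0.05 were 0 and 1 of 45 members, against 396 and 2535 of 15619 tested genes. The smallest p values belonged to COX5A (0.190), UQCRC2 (0.2298) and ATP5MC1 (0.2301), with log2 differences of 0.07 (SE 0.05), -0.07 (SE 0.05) and -0.09 (SE 0.07) and an edgeR adjusted p of 0.9998 each.

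**Figure D2:**
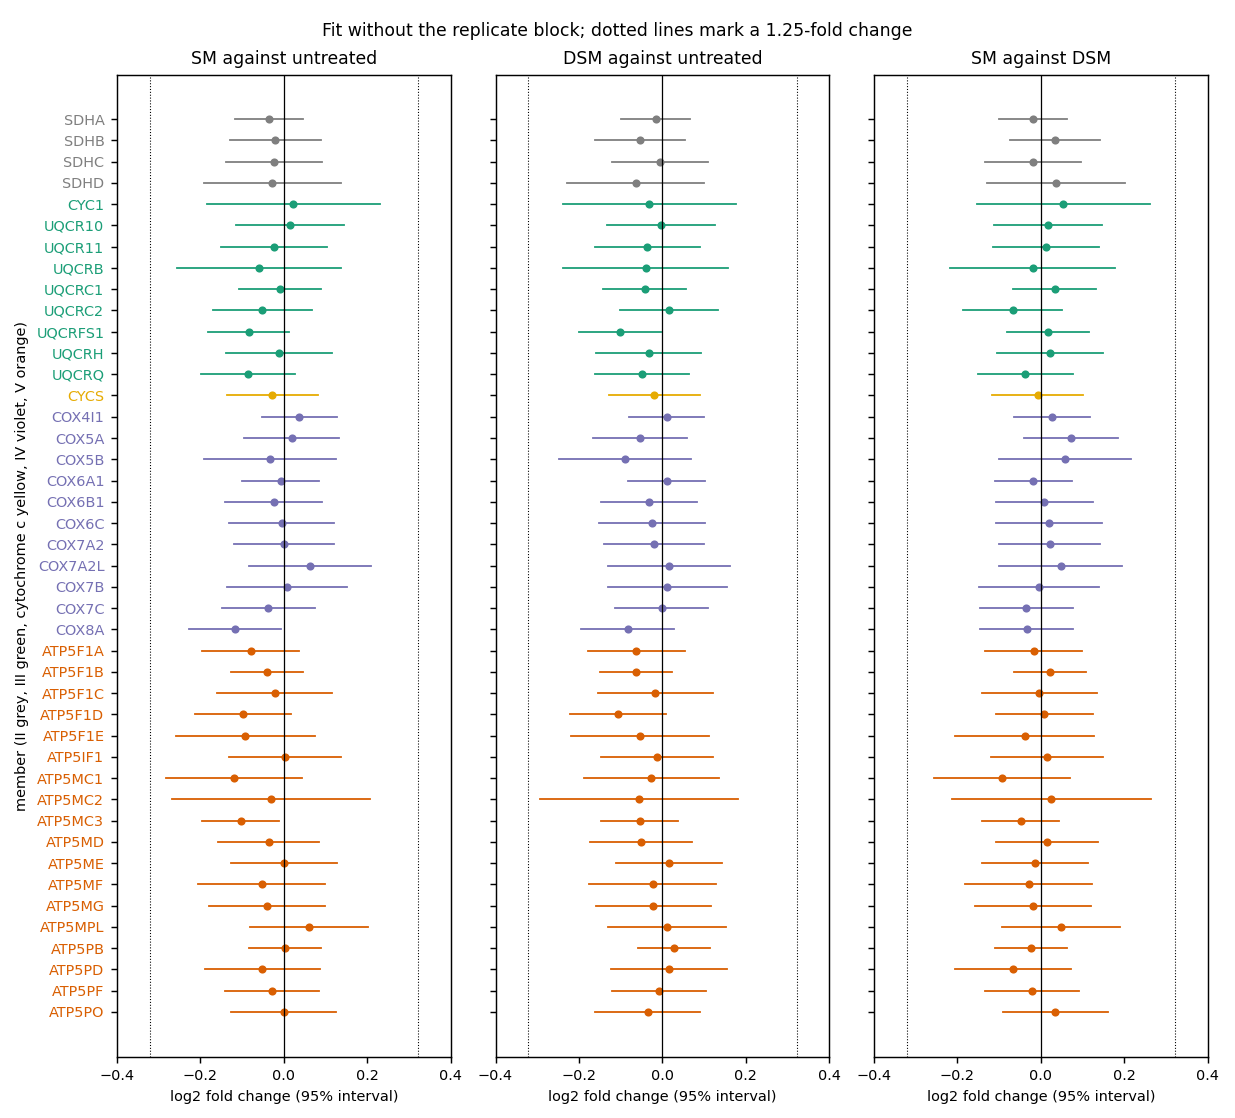
Log2 fold change of the 43 members above 10 CPM in each comparison, with 95% intervals from the edgeR fit without the replicate block, coloured by complex. All intervals lie inside the dotted lines at a 1.25-fold change, and most SM and DSM values lie to the left of 0.

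**Figure D3:**
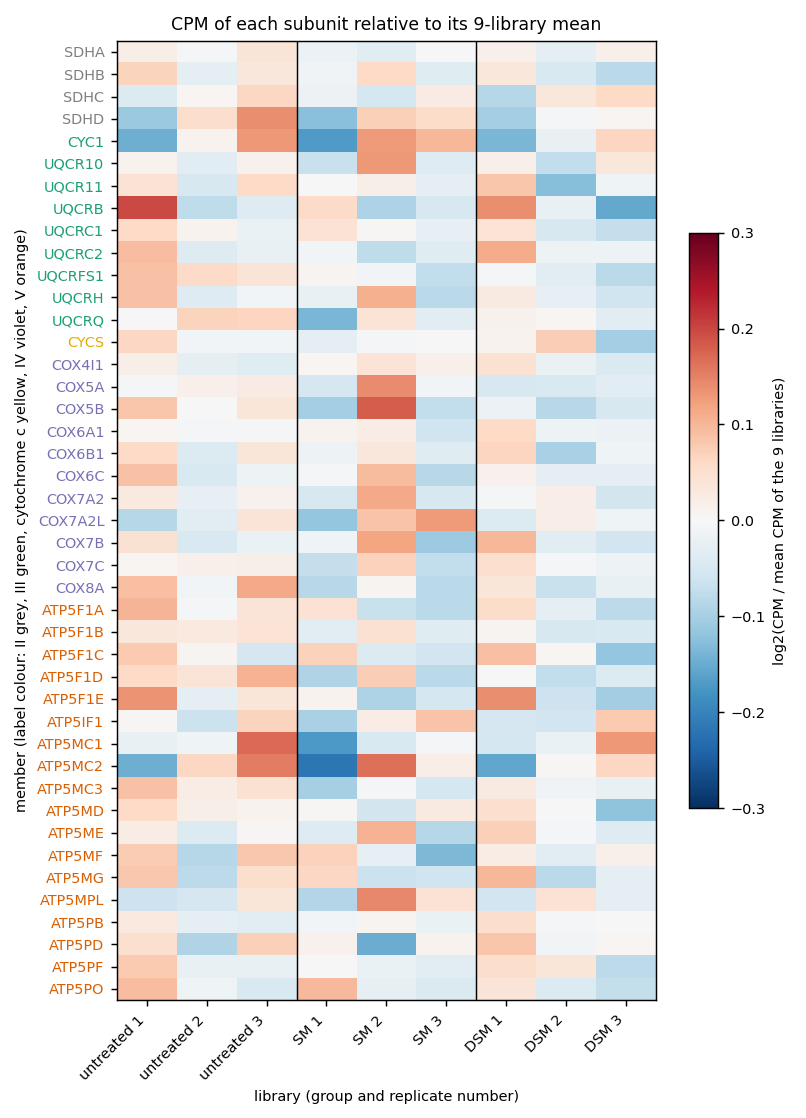
Level of the same 43 members in each of the 9 libraries, as the log2 of CPM over the mean CPM of the 9 libraries, with subunits in rows grouped by complex. Libraries numbered 1 share colours across groups, for example high UQCRB and low ATP5MC2. Most complex IV members are higher in SM replicate 2 than in the other SM libraries.

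Complex II is held by 4 subunits, and SDHA, its flavoprotein, was the steadiest of them. SDHA measured 203, 199 and 205 CPM in untreated libraries 1 to 3, 198, 195 and 199.8 with SM, and 202, 196 and 202 with DSM. Its log2 fold change was -0.04 (SE 0.04) with SM and -0.02 (SE 0.04) with DSM. The iron-sulfur subunit SDHB measured 110.0, 103 and 107 CPM untreated, 104, 109 and 102 with SM and 108, 102 and 99.3 with DSM. The groups overlapped for both. The membrane anchors SDHC and SDHD, which hold the ubiquinone site, lay at 85.7 to 94.9 and 72.6 to 87.2 CPM over the 9 libraries. SDHD was low in the library numbered 1 of every group, at 73.3, 72.6 and 73.8 CPM. The pseudogene rows SDHAP1, SDHAP2 and SDHAP3, left out by the rule, held 6.86%, 2.35% and 1.28% of the level of SDHA, and adding their counts raised the sum of complex II from 482 to 503 CPM in untreated cells.

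In complex III, UQCRFS1, the Rieske iron-sulfur protein, was the member whose libraries separated from untreated under both compounds. It measured 88.6, 86.7 and 85.6 CPM untreated, 83.9, 82.9 and 79.2 with SM and 83.0, 81.4 and 78.9 with DSM. Every treated library lay below every untreated one. The log2 fold change was -0.08 (SE 0.04) with SM and -0.10 (SE 0.04) with DSM, with unadjusted p of 0.0827 and 0.0438 and an edgeR adjusted p of 0.9999 or above. The blocked fit gave -0.09 (SE 0.03, adjusted p 0.215) and -0.10 (SE 0.03, adjusted p 0.999). The core proteins UQCRC1 and UQCRC2 lay at 236 to 259 and 102 to 116 CPM with overlapping groups. CYC1, the cytochrome of the complex, measured 105, 118 and 128 CPM untreated, 104, 128 and 125 with SM, and 106, 115 and 122 with DSM, so that its order followed the replicate number more than the treatment. UQCRH, the hinge protein that docks cytochrome c, lay at 151 to 172 CPM, and UQCRQ, UQCR10, UQCR11 and UQCRB, small accessory subunits, at 82.7 to 146 CPM. CYCS, the electron carrier between complexes III and IV, measured 311, 296 and 296 CPM untreated, 291, 296 and 298 with SM and 299.7, 313 and 277 with DSM, with log2 fold changes of -0.03 (SE 0.05) and -0.02 (SE 0.05).

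Outside ATP synthase, the abundant member furthest from 0 with SM was in complex IV. COX8A, a small transmembrane subunit, measured 140.3, 131 and 143 CPM untreated, 124, 133 and 125 with SM, and 135, 126 and 129.8 with DSM. SM replicates 1 and 3 lay below every untreated library, and SM replicate 2 lay within their range. Its log2 fold change was -0.12 (SE 0.05) with SM and -0.08 (SE 0.05) with DSM, with unadjusted p of 0.0399 and 0.125. The blocked fit gave adjusted p of 0.104 and 0.999. COX5A and COX5B, matrix-side subunits, measured 177, 202 and 182 and 70.7, 86.1 and 72.0 CPM with SM, against 182, 185 and 186 and 80.4, 75.9 and 77.8 CPM untreated. For both, SM replicate 2 was the highest of the 9 libraries. With DSM both lay below every untreated library, at 177, 177 and 179 and at 74.9, 71.6 and 73.3 CPM. COX4I1, the isoform whose tissue-restricted partner was at 1 read, lay at 151 to 161 CPM and COX6A1 at 172 to 188 CPM. COX6C, COX7A2 and COX7C, further small subunits, lay at 70.7 to 80.0, 70.0 to 78.6 and 73.9 to 81.7 CPM. COX7A2L, which joins complexes III and IV into supercomplexes, measured 56.9, 59.0 and 62.0 CPM untreated, 55.8, 64.1 and 65.9 with SM and 58.7, 61.2 and 59.9 with DSM. Its log2 fold change with SM was 0.06 (SE 0.07). COX6B2, of low count, had a log2 fold change of 0.41 with an interval of -0.33 to 1.14.

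In ATP synthase the rotor ring genes differed among themselves. ATP5MC3 measured 177, 169 and 172 CPM untreated, 155, 166 and 160.4 with SM, and 169, 165 and 164 with DSM. All 3 SM libraries lay below the untreated ones, and the DSM libraries overlapped them. ATP5MC3 had the smallest p of all members with SM in the fit without the block, with a log2 fold change of -0.10 (SE 0.04), an unadjusted p of 0.0321 and an edgeR adjusted p of 0.9999, or 0.11 with the block. ATP5MC1 measured 67.7, 68.1 and 77.4 CPM untreated, 61.0, 66.6 and 68.5 with SM, and 66.3, 67.7 and 75.2 with DSM, and was lower with SM in 3 of 3 pairs. Its log2 fold change with SM was -0.12 (SE 0.07), and -0.12 (SE 0.04) with the block, with an adjusted p of 0.0881. ATP5MC2 measured 189, 219 and 233 CPM untreated, 180.0, 235 and 212 with SM, and 188, 209.7 and 219 with DSM, and its groups overlapped throughout.

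Among the subunits of the catalytic head and central stalk, ATP5F1B measured 1138, 1134 and 1144 CPM untreated, 1089, 1148 and 1084 with SM, and 1118, 1075 and 1077 with DSM. Its log2 fold change was -0.04 (SE 0.04) with SM and -0.06 (SE 0.04) with DSM. ATP5F1A measured 231, 215 and 222 CPM untreated, 222, 206 and 204 with SM, and 224, 212 and 204 with DSM, and was lower in 3 of 3 pairs with either compound. ATP5F1D, a central stalk subunit, measured 122, 120.3 and 126 CPM untreated, 110.0, 123 and 111 with SM, and 117, 111 and 114 with DSM. Its DSM libraries lay below the untreated ones, with a log2 fold change of -0.11 (SE 0.05), an unadjusted p of 0.0663 and an adjusted p of 0.9993 with the block. ATP5F1E, also of the central stalk, was the least abundant tested subunit of the complex at 31.1 to 36.9 CPM. ATP5IF1, the peptide that inhibits ATP hydrolysis by the enzyme, lay at 147 to 167 CPM, with log2 fold changes of 0.0025 (SE 0.06) and -0.01 (SE 0.06). The other members of complex V, of the peripheral stalk and the membrane part, lay within the same bounds.

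Counted by libraries that do not overlap, 2 of 43 abundant members lay wholly below untreated with SM (ATP5MC3 and UQCRFS1), against 3.46% of all tested genes, and 0 lay wholly above, against 3.28%. With DSM 5 lay wholly below (COX5A, COX5B, ATP5F1B, ATP5F1D and UQCRFS1), against 2.22% of all genes, and 0 above, against 2.2%. Within pairs of the same number, 12 of 43 were lower with SM in 3 of 3 pairs, against 18.9% of all tested genes, and 0 were higher, against 17.4%. With DSM 15 of 43 were lower in 3 of 3 pairs, against 15.1% of all genes, and 2 were higher, against 14.3%. These counts describe the members and were not tested. The summed level of complex V was 3087 ± 47.8 CPM untreated, 2999.6 ± 63.9 with SM and 2998 ± 54.8 with DSM (SD, n = 3). The sums of complex IV were 1264 ± 20.6, 1256 ± 59.1 and 1244 ± 31.0 CPM, of complex III 1150.2 ± 26.7, 1128 ± 23.7 and 1122 ± 34.7, and of complex II 482 ± 11.5, 472 ± 7.02 and 472 ± 3.59 (SD, n = 3). Within pairs 1 to 3, the log2 difference of the complex V sum between SM and untreated was -0.068, 0.019 and -0.076, and that of complex IV -0.065, 0.094 and -0.058. With DSM the sums of complexes II, III, IV and V were lower in 3 of 3 pairs, from -0.0016 (complex IV, pair 1) to -0.073 (complex V, pair 3). No test was made of these sums.

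SM replicate 2 stood above the other SM libraries in complex IV. It was the highest SM library for 10 of 11 abundant members of complex IV (90.9%), with a median of 0.14 above the mean of the other 2 on the log2 scale. For all 43 abundant members the share was 55.8%, for complex V 38.9%, for complex I subunits 65.8% and for all tested genes of at least 30 CPM 32.5%. Other libraries departed from their groups as well. DSM replicate 1 was the highest DSM library for 69.8% of the 43 members and 72.7% of complex IV, against 42.4% of those tested genes. For untreated replicate 1 the shares were 55.8%, 63.6% and 43.8%. In the pair numbered 2 the median difference of complex IV members between SM and untreated was 0.12, against -0.077 and -0.068 in the pairs numbered 1 and 3. Untreated replicate 2 was the highest untreated library for 0 of the 11, with a median log2 difference of -0.047 from the other untreated libraries. SM replicate 2 also had the lowest total count, and the part of depth in the result was not tested.

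Without SM replicate 2 the blocked fit called 5 of 45 members as lower with SM, against 1.43% of all genes. These members were named after their values were seen, and the alternative was chosen after seeing the data. Leaving out the SM library that stood highest in complex IV lowers the SM mean of most of its members by construction. The adjusted p values below follow a choice made on these same values, so they are no independent support. COX8A fell by 0.18 on the log2 scale (SE 0.03, edgeR adjusted p 0.00279), ATP5F1D by 0.17 (SE 0.03, adjusted p 0.00506), ATP5MC1 by 0.16 (SE 0.04, adjusted p 0.0197), COX5B by 0.15 (SE 0.04, adjusted p 0.030) and ATP5MC3 by 0.14 (SE 0.03, adjusted p 0.0241). Of these, 2 belong to complex IV and 3 to ATP synthase. Over all 45 members 39 were negative, the median was -0.061, and 15 had an unadjusted p under 0.05. The matching count over all genes in that fit is not given here. The median was -0.044 for complex II, -0.073 for III, -0.062 for IV and -0.065 for V. Leaving out any of the other 8 libraries from the blocked fit gave 0 members called. The fit of SM against DSM without SM replicate 2 also called 0.

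**Figure D4:**
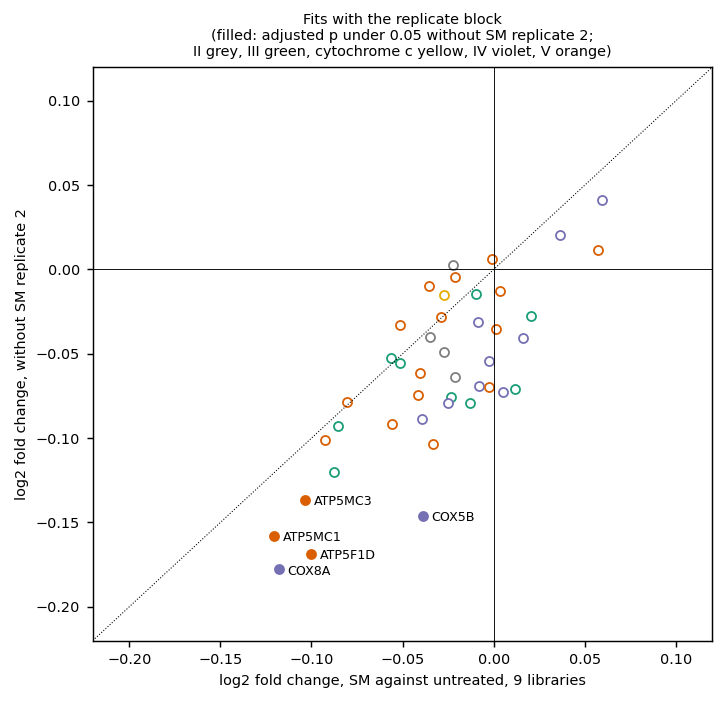
Log2 fold change of the 43 abundant members with SM in the blocked fit of all 9 libraries (horizontal axis) and without SM replicate 2 (vertical axis), coloured by complex, with filled points for an adjusted p under 0.05. Most points lie below the dotted line of equality, and the 5 filled points are COX8A, ATP5F1D, ATP5MC1, COX5B and ATP5MC3.

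Between replicate numbers, members differed by up to 0.25 on the log2 scale. In the blocked fit, 8 of 45 members were higher in the libraries numbered 1 than in those numbered 2 and 3, against 21.7% of all genes, and 6 were lower, against 20.3%. Both shares are near or below the background. The split by number was known from earlier results of these data. Its calls and adjusted p values therefore describe these libraries and are no independent support. ATP5MC2 measured 189, 180.0 and 188 CPM in the libraries numbered 1 and 209.7 to 235 CPM in the other 6, a log2 difference of -0.25 (SE 0.03, edgeR adjusted p 2.65e-06). CYC1 measured 104 to 106 against 115 to 128 CPM (-0.22, SE 0.03) and SDHD 72.6 to 73.8 against 78.8 to 87.2 CPM (-0.17, SE 0.03). COX7A2L, ATP5MC1 and ATP5MPL, a small membrane subunit of ATP synthase, were lower by 0.12, 0.12 and 0.10. UQCRB measured 146, 133 and 140.1 CPM in the libraries numbered 1 and 114 to 125 CPM in the others, a log2 difference of 0.20 (SE 0.03). The other 7 that were higher were ATP5F1E (0.15), ATP5MG (0.12), ATP5F1C (0.12), ATP5PO (0.12), ATP5F1A (0.10), UQCRC2 (0.10) and UQCRC1 (0.07). Subunits of the same complex thus went in both directions, as the beta subunit ATP5F1B stood at 0.0064 (SE 0.03) between the alpha subunit ATP5F1A and the c subunit gene ATP5MC2.

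**Figure D5:**
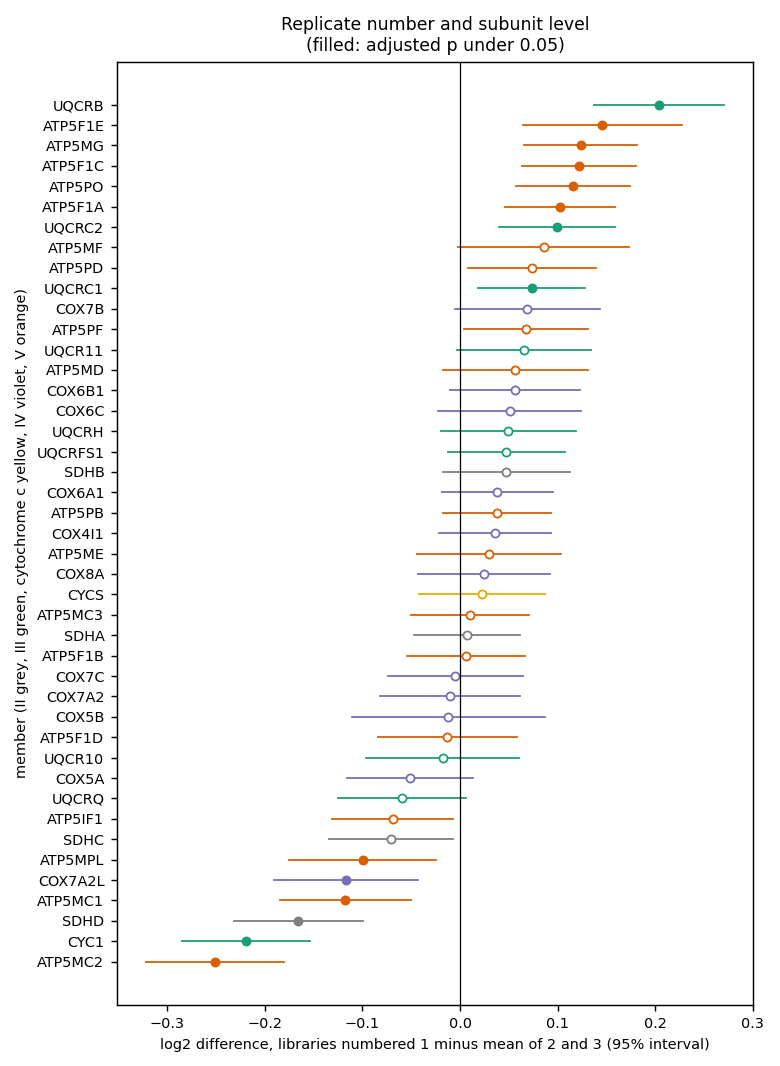
Log2 difference between the libraries numbered 1 and the mean of those numbered 2 and 3 for the 43 abundant members, sorted, with 95% intervals and coloured by complex. Filled points have an adjusted p under 0.05, with UQCRB highest at 0.20 and ATP5MC2 lowest at -0.25. The split by number was known from earlier results of these data, so the filling is descriptive.

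The spread of each gene over the 9 libraries was small. The SD of log2 CPM had a median of 0.062 over the 43 abundant members, against 0.072 over the 6304 tested genes of at least 30 CPM and 0.059 over the complex I subunits in that range. SDHA (0.024) and ATP5PB (0.027), a peripheral stalk subunit, were the steadiest, and ATP5MC2 (0.14) and CYC1 (0.12) the most variable. By complex the median was 0.051 for II, 0.062 for III, 0.059 for IV and 0.070 for V.

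The other genes of the pathway were described by list, beside the shares of all genes called that are given above (at most 0.0192% without the block, and 2.74%, 0% and 3.88% with it). Of 38 complex I subunits (a list that includes NDUFA4, now assigned to complex IV), 39 tested assembly factors of complexes II to V and 4 carriers that exchange phosphate and adenine nucleotides with ATP synthase, 0 were called in any treatment comparison, with or without the block. The median log2 fold change with SM was -0.021 for complex I, 0.010 for the assembly factors and -0.055 for the carriers, and -0.026, -0.012 and -0.047 with DSM. Of 78 mitochondrial ribosomal proteins, 1 was called, MRPS35, higher with SM than with DSM by 0.13 (SE 0.03, adjusted p 0.0232) in the blocked fit. Its adjusted p without the block was 0.9998. Of 78 cytosolic ribosomal proteins 0 were called.

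Among 12 regulators of respiratory gene transcription, PPARGC1B was the 1 that passed, and only with the block. It encodes PGC-1 beta, a coactivator of NRF1 and of estrogen-related receptors. PPARGC1B measured 11.4, 15.6 and 16.5 CPM untreated, 15.4, 19.8 and 18.4 with SM, and 12.4, 15.7 and 15.7 with DSM. It was higher with SM in 3 of 3 pairs, while the groups overlapped. In the blocked fit it rose by 0.30 (SE 0.06, edgeR adjusted p 0.0054) against untreated and by 0.29 (SE 0.06, adjusted p 0.00621) against DSM. Without the block the adjusted p was 0.9999 and 0.9998. The blocked call against untreated was lost without untreated replicate 1 (adjusted p 0.121) or 2 (0.0615), and that against DSM without DSM replicate 2 (0.0538) or 3 (0.0614).

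Reads of 20 of the 51 genes may include reads of another gene, because their exons overlap it in the GENCODE annotation and the strand setting of the counting is not given. The overlap with MYL5 on the opposite strand covered 49.9% of the exonic bases of ATP5ME, that with GDF9 30% of UQCRQ, and that with an uncharacterized transcript on the same strand 70.3% of ATP5PO. Of the 5 members called without SM replicate 2, COX8A overlapped an uncharacterized transcript over 34.5% and ATP5MC3 others over at most 6.93% of its exonic bases, and the other 3 overlapped none.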

How the data were processed

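The authors deposited raw read counts per gene for the 9 libraries, whole numbers without normalization, and these counts were the values used. Per the labels' protocols, the kit was NuGEN Universal Plus mRNA-seq, on RNA taken up in TRIzol. The submitters' processing notes list the build hg38 and, among tools, featureCounts 2.0.0, TopHat2 2.1.1, DESeq2 1.26.0, cutadapt 3.4, bcl2fastq 2.20.0.422, MultiQC 1.10.1 and FastQC 0.11.9. The annotation and the strand setting, and how multi-mapping reads were treated, were not given in the sources used here. A second deposited table, of normalized values, was not used.

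Counts were fitted in R 4.3.3 with edgeR 4.0.16 (quasi-likelihood, robust, TMM factors 0.981 to 1.02) on 15619 genes that passed filterByExpr (by group, with a minimum count of 10 and a minimum total of 15). All 9 libraries entered 1 fit with group as the only term, and two-sided tests were adjusted by Benjamini-Hochberg at 0.05 over all genes. Intervals are 95%, and log2 CPM used a prior count of 2. The method was also run on simulated counts that held no outlying library, and the outcome is not given here. The p-values set each group difference against the spread between libraries of the same group. Without the block that spread includes the differences between replicate numbers. The replicate numbers pair the libraries: deviations from group means correlated at 0.227 to 0.582 in all 9 same-numbered pairs of libraries, against -0.404 to 0.161 in the 18 others, so a fit with the number as a block is given beside each call.

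Full values were given for members called in a treatment comparison, otherwise for the 3 with the smallest p. A fixed set of subunits was named whatever their call, some of them with a range of levels only. The members, lists and rules were chosen with earlier results of these data known. Coordinates and promoters are from RefSeq (GRCh38.p14), where 39 of 51 members had a promoter and 5 had more than 1 start, of which the first was used. Transcript lengths and overlaps came from the GENCODE annotation of GRCh38. Alternatives were other scalings and filters, DESeq2 1.42.0, limma 3.58.1 (voom), a fit of 2 groups only, no robust estimation, the block, pseudogene counts added to their parents, and leaving out each library. Blocked DESeq2, blocked voom and blocked leaving-out were added after seeing the data.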

Additional observations from a re-analysis of the deposited data

How the results depend on the processing

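No member was called in any treatment comparison under the other scalings, filters, tests, 2-group fits and libraries left out, and the fit with the replicate block changed no call of a member and left the count at 0. The 1 exception, among the alternatives added after seeing the data, was the blocked fit without SM replicate 2, where the count with SM ranged from 0 to 5 over the libraries left out; fewer samples entered it, and the cause of the change was not tested. For the 28 tested members named by the rules above, the alternatives added after the data were seen were left aside. Of their 1593 alternative values 0 were called, and the lowest adjusted p was 0.0881. The sign differed from the main fit in 83 uncalled values. Among the results concerned, the largest main-fit value was 0.19 in size, for UQCRHL with SM, a gene of low count. With 1 library left out, the median of complex II with DSM ranged from -0.040 to -0.0046 and that of complex V between SM and DSM from -0.032 to 0.017. With SM the median of complex III ranged from -0.065 to 0.00064 and that of complex IV from -0.048 to 0.023, and with DSM those of complexes III, IV and V from -0.055 to -0.0089, -0.029 to 0.0053 and -0.051 to -0.0084. The medians of complex III with SM and of complex IV with SM or DSM thus did not keep their sign, and that of complex IV with SM was 0.0035 with library totals in place of TMM. Between SM and DSM the medians of complexes II, III, IV and V did not keep their sign either. The value of CYCS changed sign with DSM and between SM and DSM. Adding pseudogene counts moved the sum of complex II to 503, 493 and 493 CPM in untreated, SM and DSM libraries, from 482, 472 and 472. The number of members called between replicate numbers stayed within 1.5 times in every alternative. The intervals of COX6B2 and UQCRHL, tested at or below 1.03 CPM, exceeded a 1.25-fold change, and 6 members with fewer reads were not tested. The median half-width of the abundant members' intervals with SM was 0.12 without the block and 0.076 with it, on the log2 scale.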
